A study of Mus musculus with 6 samples.

Results

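A set of 10 genes that let a cell detect foreign or misplaced nucleic acid, or that act directly on such molecules, were followed in the mouse mammary carcinoma line 4T1. They were selected by gene name from a table of 56448 genes and are Ifih1, Ddx58, Dhx58, Tlr3, Zbp1, Eif2ak2, Adar, Trim25, Mavs and Mov10. For short they are called sensor genes below. Not all encode sensors, since Mavs encodes an adaptor, Trim25 a ubiquitin ligase, Adar an editing enzyme and Mov10 an RNA helicase. Each of the 10 names matched 1 row, and all 10 passed the minimum mean level used for testing, which left 13406 genes. The set was chosen by name with earlier results of the same comparison in view, among them the difference in Zbp1, so the differences between groups are given as a description and nothing is supported by them.

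The libraries were messenger RNA sequencing of 4T1 cells grown in culture with fetal bovine serum, 3 labelled LV2 and 3 labelled in9. The series describes a line made by lentivirus infection with stable knockdown of the microRNA miR-9, beside a control group, but the labels spell out neither name and do not say which group is the control. Every difference is therefore given as in9 minus LV2. All libraries share the cell line and the culture conditions. No label says whether a group is a clone, and separate cultures are not stated for the replicates. The p-values then set the group difference against a spread within groups that may be only technical. They may not carry over to new cultures or clones. The extraction protocol mentions tissue samples and the design text a microarray, while the values are those of sequencing. Values are in TPM, transcript abundances scaled for gene length and library total. Levels can therefore be set beside each other between genes, but only roughly, since the quantifier and annotation are not given. The values keep no record of sequencing depth.

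Vertebrate cells read viral or misplaced RNA with a small set of proteins. In the cytosol the RIG-I-like helicases, encoded by Ddx58 (RIG-I), Ifih1 (MDA5) and Dhx58 (LGP2), bind double-stranded RNA, and RIG-I and MDA5 pass the signal to the adaptor MAVS on mitochondria, which leads to interferon production. TLR3 reads double-stranded RNA in endosomes, ZBP1 binds nucleic acid in the left-handed Z form, and the kinase PKR, encoded by Eif2ak2, stops translation. Most of these genes are themselves induced by interferon, which makes them both sensors and response genes.

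The promoters were compared for the response element of interferon, because most of the genes share that textbook regulation. RefSeq promoter windows in build GRCm38.p6, from 250 bases before to 50 bases after a transcription start, were present for 8 of the 10 genes (11 windows, since Adar had 3 and Mov10 had 2). Zbp1 and Dhx58 had no entry in that table. The core of the element, GAAANNGAAA on either strand, was in the windows of Ifih1, Ddx58 and Eif2ak2, against 3.4% of all 32851 windows. In all 3 genes the match lay just after the start, and the stretches below run from 60 bases before the start to 50 bases after it, with the match in capitals.
Ifih1, chr2:62646206-62646315, minus strand: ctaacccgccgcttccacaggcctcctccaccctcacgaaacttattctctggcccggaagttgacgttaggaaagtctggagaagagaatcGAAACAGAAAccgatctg
Ddx58, chr4:40239776-40239885, minus strand: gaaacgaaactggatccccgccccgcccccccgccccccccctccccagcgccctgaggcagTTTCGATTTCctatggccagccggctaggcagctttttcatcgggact
Eif2ak2, chr17:78882523-78882632, minus strand: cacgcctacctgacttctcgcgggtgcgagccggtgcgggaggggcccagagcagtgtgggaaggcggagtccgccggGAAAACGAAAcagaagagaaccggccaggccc
Counted from the start as base 1, the matches covered bases 33 to 42 in Ifih1, 3 to 12 in Ddx58 (read on the other strand) and 19 to 28 in Eif2ak2. A second core, TTCNNNGAA, which is its own reverse complement and binds STAT dimers, was in the windows of Eif2ak2 and of the third Adar start, against 8.3% of all windows. The windows of Tlr3, Trim25, Mavs and Mov10 held neither string, and the 3 windows of Adar did not hold GAAANNGAAA. This says only that these exact letters are not in those stretches, since near matches were not searched for.

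Because the series is about miR-9, each gene's longest 3' UTR (GENCODE M21, mm10) was searched for matches to its seed. The mature sequence, with the seed of bases 2 to 8 in capitals, is the reference for that search.
miR-9-5p: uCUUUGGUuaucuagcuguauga
Matches of 7 or 8 bases occurred in 2 of the 10 genes and in 22.2% of the 10952 tested genes with an annotated 3' UTR. Eif2ak2 had 2 matches of 7 bases in a 3' UTR of 2575 bases, and Trim25 had 1 in 3572 bases. No 8-base match occurred. The sites, shown with 10 flanking bases and the match in capitals, are these.
Eif2ak2, chr17:78854887-78854893, minus strand: tctcgtctgcCCAAAGAgaaaggcagg
Eif2ak2, chr17:78853779-78853785, minus strand: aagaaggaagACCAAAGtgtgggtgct
Trim25, chr11:89018792-89018798, plus strand: caagcaggcaACCAAAGcccagagctg
Zbp1 and Mov10, the pair with the largest differences below, had no match in 3' UTRs of 605 and 313 bases, against a median 3' UTR length of 1167 bases over the tested genes.

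All 10 genes were expressed in every library, and in both groups Ddx58 had the highest mean. The LV2 means ran from 10.1 TPM for Tlr3 to 69.9 TPM for Ddx58, a span of 6.91-fold. The descending order in LV2 was Ddx58, Adar, Eif2ak2, Trim25, Mov10, Mavs, Zbp1, Ifih1, Dhx58 and Tlr3. Neighbours whose libraries overlapped in LV2 were Adar with Eif2ak2, Mavs with Zbp1, Zbp1 with Ifih1, and Dhx58 with Tlr3. In in9 the first 5 places were held by Ddx58, Eif2ak2, Adar, Trim25 and Mov10, and each overlapped with the next. Zbp1 held different places. It lay among Mavs and Ifih1 in LV2, and in in9 it was above both and below Mov10 with no overlap.

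**Figure D1:**
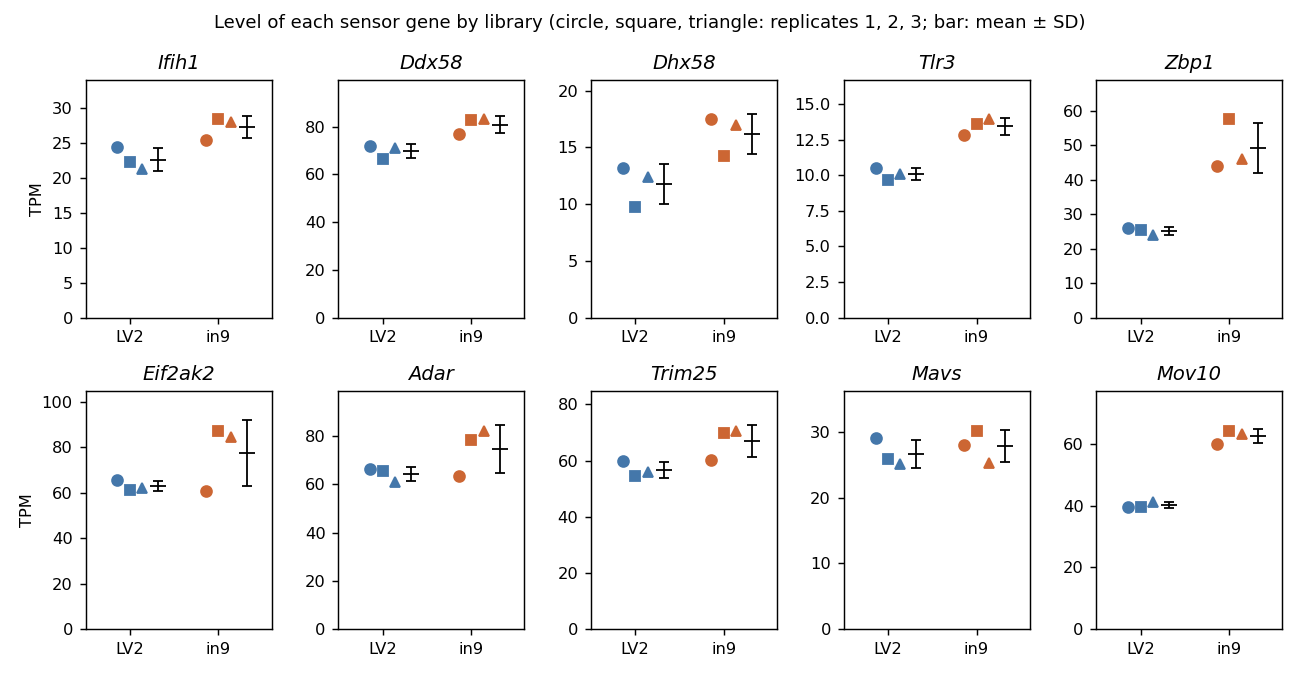
TPM of each of the 10 genes (vertical axes, all starting at 0) in the 3 LV2 and 3 in9 libraries, with circle, square and triangle for replicates 1, 2 and 3 and a bar for the mean and SD. In Zbp1 and Mov10 the in9 points stand clear of LV2, and in Eif2ak2 and Adar in9 replicate 1 (circle) sits at the LV2 level.

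The comparison of in9 with LV2 asked how the sensor genes differ between the cell populations. Of the 10 genes, Zbp1 and Mov10 were called higher at an adjusted p under 0.05 in limma and none was called lower, where 0.821% of all tested genes were called higher. All 10 had a positive log2 fold change, as did 63.7% of all tested genes. At an unadjusted p under 0.05, 7 sensor genes were higher and none lower, against 13.6% of tested genes higher. In 7 genes every in9 library lay above every LV2 library, which held for 17.4% of tested genes. The median log2 fold change of the 10 genes was 0.27 and that of all tested genes 0.06. After trimmed-mean scaling of the libraries the 10 genes had a median of 0.20, with 9 positive, and after quantile normalization 0.22, with 9 positive, the exception in both being Mavs at -0.01. The counts follow from the choice of the genes and nothing is read from them.

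ZBP1 is the sensor of left-handed double-stranded nucleic acid, and through its RIP homotypic interaction motif it can start necroptosis and other forms of cell death. Zbp1 (ENSMUSG00000027514, chromosome 2, positions 173206612 to 173218923 of mm10, minus strand) was at 26.04, 25.52 and 23.97 TPM in LV2 replicates 1 to 3. In in9 replicates 1 to 3 it was at 43.88, 57.52 and 46.13 TPM. The LV2 libraries lay close together, the in9 libraries were all higher with in9 replicate 2 the highest, and the groups did not overlap. The mean rose from 25.2 ± 1.08 to 49.2 ± 7.31 TPM (SD, n = 3), 1.95-fold. On the log2(TPM + 1) scale the difference was 0.93 ± 0.11 (SE), with a 95% interval of 0.68 to 1.18 and an adjusted p of 0.0294 in limma. The call was lost, at adjusted p-values of 0.101 to 0.137, when LV2 replicate 1, 2 or 3 or in9 replicate 3 was left out, while the fold change stayed between 0.81 and 1.01. It was also lost without the intensity trend (adjusted p = 0.0632) and without a filter on low genes (0.0702), and with a replicate block (0.195).

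MOV10 is an RNA helicase of RNA granules that restricts retroviruses and the retrotransposon LINE-1. Mov10 (ENSMUSG00000002227, chromosome 3, positions 104794836 to 104818563, minus strand) was at 39.57, 39.75 and 41.40 TPM in LV2. In in9 it was at 60.22, 64.47 and 63.44 TPM. Both groups were tight, with coefficients of variation of 2.51% and 3.54%, and they did not overlap. The mean rose from 40.2 ± 1.01 to 62.7 ± 2.22 TPM (SD, n = 3), 1.56-fold, and the log2 difference was 0.63 ± 0.05 (SE), with a 95% interval of 0.51 to 0.75 and an adjusted p of 0.00945 in limma. The size was the steadiest of the set, at 0.61 to 0.66 without any 1 library, although leaving out any of LV2 replicates 1, 2 and 3 or in9 replicates 2 and 3 ended the call (adjusted p of 0.0613 to 0.086), as did a replicate block (adjusted p = 0.194).

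The number of calls changed most with in9 replicate 1. The first principal component of all tested genes (28.1% of the variance) placed in9 replicate 1 at -2.7, nearer to LV2 replicate 1 at -6.98 than to in9 replicates 2 and 3 at 26.1 and 27.8. LV2 replicates 2 and 3 were at -22 and -22.2. Leaving out any of the other 5 libraries gave 6 to 10 genes called higher in place of 110, and 1 sensor gene at most. With in9 replicate 1 left out, 971 tested genes were called higher, which is 7.25% of them, and 7 of the 10 sensor genes, with none lower. The 7 were Zbp1, Mov10, Tlr3, Ddx58, Eif2ak2, Adar and Trim25. In9 replicate 1 was the in9 library nearest to LV2 on that component, so leaving it out favours calls by construction. Nothing is read from the added calls.

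**Figure D2:**
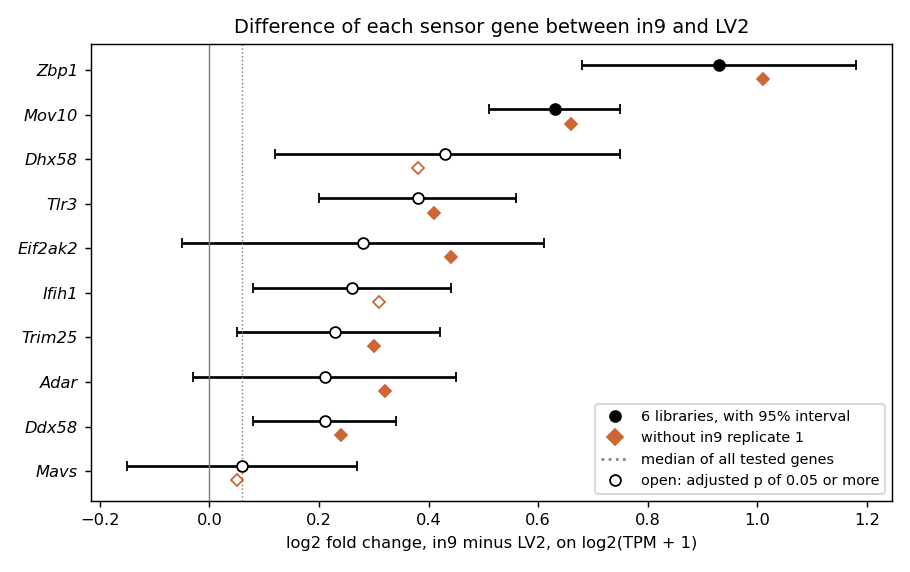
Log2 fold change of each gene, in9 minus LV2 on log2(TPM + 1) (horizontal axis), with all 6 libraries (circles with 95% intervals) and without in9 replicate 1 (diamonds), filled where the adjusted p was under 0.05. Zbp1 at 0.93 and Mov10 at 0.63 are called with all libraries, 7 genes without in9 replicate 1, and Mavs lies at the median of all tested genes (dotted line at 0.06).

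The RIG-I-like receptors had small positive differences, none of them called. Ddx58 encodes RIG-I, the receptor for short double-stranded RNA with a 5' triphosphate (chromosome 4, positions 40203773 to 40239828). It was at 71.98, 66.56 and 71.15 TPM in LV2. The in9 values were 76.81, 82.74 and 83.02 TPM, each above the highest LV2 library. Its log2 difference of 0.21 ± 0.06 (SE) had an adjusted p of 0.126 in limma, and of 0.0397 without in9 replicate 1. With any other library left out, the adjusted p was 0.201 to 0.349. Ifih1 encodes MDA5, the receptor for long double-stranded RNA (chromosome 2, positions 62595798 to 62646255), and was at 24.42, 22.26 and 21.26 TPM in LV2. In in9 it was at 25.45, 28.43 and 28.06 TPM, so the groups did not overlap, although in9 replicate 1 and LV2 replicate 1 were near each other. Its log2 difference was 0.26 ± 0.08 (SE, adjusted p = 0.148 in limma, and 0.057 without in9 replicate 1). Dhx58 encodes LGP2, which lacks the signalling domain of the other receptors and modulates them (chromosome 11, positions 100694884 to 100704271). It was at 13.17, 9.77 and 12.43 TPM in LV2 and at 17.48, 14.21 and 16.99 TPM in in9. It was the most variable of the 10 genes in LV2, with a coefficient of variation of 15.2%, yet its groups did not overlap. Its log2 difference of 0.43 ± 0.13 (SE) was not called either (limma, adjusted p = 0.155, and 0.15 without in9 replicate 1).

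TLR3 reads double-stranded RNA taken up into endosomes and signals through the adaptor TRIF. Tlr3 (chromosome 8, positions 45395665 to 45411080) had the lowest level of the set, at 10.53, 9.71 and 10.09 TPM in LV2. In in9 it was at 12.81, 13.62 and 13.94 TPM, clear of LV2 in all libraries. The log2 difference of 0.38 ± 0.07 (SE), with a 95% interval of 0.20 to 0.56, missed the threshold in limma (adjusted p = 0.0692). Without in9 replicate 1 it was 0.41 with an adjusted p of 0.0322. With any other library left out, the adjusted p was 0.145 to 0.255 in limma.

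PKR and ADAR act on double-stranded RNA in opposite ways, PKR by phosphorylating the translation factor eIF2alpha and ADAR by deaminating adenosine to inosine, which keeps the cell's own duplexes from being sensed. Eif2ak2 (chromosome 17, positions 78852564 to 78882573) was at 65.64, 61.36 and 62.16 TPM in LV2 and at 60.60, 87.37 and 84.58 TPM in in9. The in9 libraries were divided. Replicate 1 lay below every LV2 library, and replicates 2 and 3 lay far above them, so that the coefficient of variation was 3.61% in LV2 and 19.0% in in9. The log2 difference was 0.28 ± 0.14 (SE, 95% interval -0.05 to 0.61, adjusted p = 0.326 in limma), and 0.44 ± 0.05 with an adjusted p of 0.0123 without in9 replicate 1. With any other library left out, the adjusted p was 0.394 to 0.625. Adar (chromosome 3, positions 89715022 to 89753446) also had divided in9 libraries, with replicate 1 within the LV2 range and replicates 2 and 3 above it. It was at 66.21, 65.54 and 61.02 TPM in LV2, and in in9 at 63.55 TPM in replicate 1 and 78.32 and 82.31 TPM in replicates 2 and 3. Its log2 difference was 0.21 ± 0.10 (SE, adjusted p = 0.313 in limma), and 0.32 ± 0.05 without in9 replicate 1 (adjusted p = 0.0291). With any other library left out, the adjusted p was 0.383 to 0.605. The table has 1 row per gene, so the interferon-induced long form of ADAR was not separated from the constitutive short form. The exons of Adar overlap those of Chrnb2 on the opposite strand over 1365 bases, and Chrnb2 was at 1.6 to 2.02 TPM. Shorter overlaps with opposite-strand genes, of at most 381 bases, affect Dhx58, Tlr3 and Eif2ak2, and the partners with a measured level were at 0.38 TPM or less.

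TRIM25 is a ubiquitin ligase that binds RNA and promotes RIG-I signalling, and MAVS is the adaptor on which RIG-I and MDA5 converge. Trim25 (chromosome 11, positions 88999376 to 89020293) was at 59.97, 54.48 and 55.76 TPM in LV2. In in9 it was at 60.31, 69.87 and 70.65 TPM, with replicate 1 barely above the highest LV2 library. The log2 difference was 0.23 ± 0.08 (SE, adjusted p = 0.177 in limma), and 0.30 without in9 replicate 1 (adjusted p = 0.0317). With any other library left out, the adjusted p was 0.222 to 0.427. Mavs (chromosome 2, positions 131234063 to 131248025) was at 29.10, 25.90 and 25.14 TPM in LV2 and at 28.06, 30.23 and 25.38 TPM in in9. Its groups overlapped, with in9 replicate 2 above and the other in9 libraries within the LV2 range. The log2 difference was 0.06 ± 0.09 (SE), with a 95% interval of -0.15 to 0.27 and an adjusted p of 0.739 in limma.

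Across libraries, the genes fell into patterns that the group means do not show. Relative to the LV2 mean on the log2 scale, in9 replicate 1 was 0.78 higher in Zbp1, 0.57 in Mov10 and 0.54 in Dhx58, but -0.06 in Eif2ak2, -0.01 in Adar and 0.09 in Trim25. In9 replicates 2 and 3 were 0.46 and 0.42 higher in Eif2ak2 and 0.28 and 0.35 higher in Adar. Of the 10 genes, 7 exceeded every LV2 library in in9 replicate 1, 10 in replicate 2 and 9 in replicate 3. The matching shares of all tested genes were not computed for single libraries, so nothing is read from these counts. For all 3 in9 libraries at once the share of all tested genes was 17.4%. The median difference of the 10 genes was 0.15, 0.31 and 0.38 in in9 replicates 1, 2 and 3, where that of all tested genes was 0.00, 0.08 and 0.09. The summed TPM of the 10 genes was 380.8 to 406.6 in LV2 and 449.2, 526.8 and 514.5 in in9 replicates 1, 2 and 3. On the principal component in9 replicate 1 lay apart from the other in9 libraries, and LV2 replicate 1 from the other LV2 libraries. In9 replicate 1 had the lowest summed level and the smallest median difference of the in9 libraries. LV2 replicate 1 had the highest summed level of the LV2 libraries, at 406.6 TPM.

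**Figure D3:**
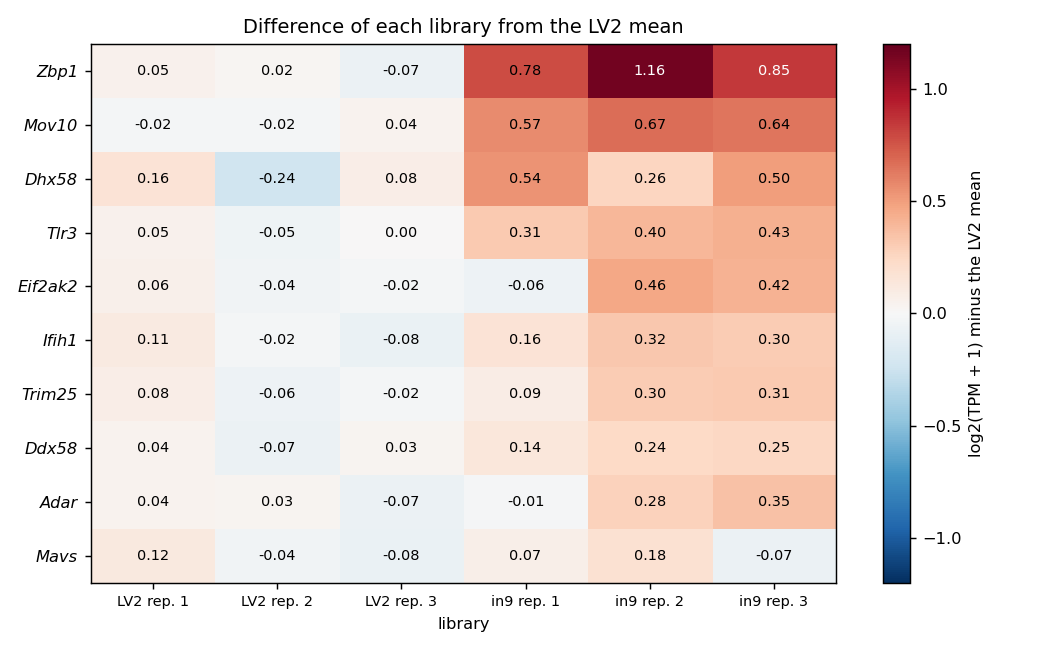
Difference of each library (columns) from the LV2 mean on log2(TPM + 1), by gene (rows), in red where higher and blue where lower, with the value in each cell. Zbp1 and Mov10 are higher in all 3 in9 libraries, from 0.57 to 1.16, while Eif2ak2 and Adar are at -0.06 and -0.01 in in9 replicate 1 and 0.28 to 0.46 in the other in9 libraries.

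The deposited annotation shows what the products share. All 10 genes carried the term for defense response to virus, which 144 tested genes (1.07%) carried. The Z-alpha domain, which binds left-handed duplexes, was annotated in 2 tested genes, Zbp1 and Adar, whose log2 differences were 0.93 and 0.21. The C-terminal regulatory domain of RIG-I was annotated in 3 tested genes, Ifih1, Ddx58 and Dhx58, with log2 differences between 0.21 and 0.43. The genes lie on 6 chromosomes, with Zbp1, Ifih1 and Mavs far apart on chromosome 2.

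The genes whose profile over the 6 libraries was nearest to that of Zbp1 were Cbr2, Lrp1, Gbp7, Map4k1 and Tnc. Nearness was the root mean square difference of log2(TPM + 1) after centring each gene, and it was 0.08 for Cbr2, 0.09 for Lrp1, 0.10 for Gbp7 and 0.11 for both Map4k1 and Tnc. Gbp7 encodes an interferon-induced guanylate-binding protein and had LV2 values of 6.43 to 7.40 TPM against 10.71 to 14.82 TPM for in9. Cbr2, a carbonyl reductase gene, had 8.55 to 10.42 TPM in LV2 libraries and 16.98 to 22.30 TPM in those of in9. Among the other sensor genes Mov10 was the nearest to Zbp1, in place 42 of 10825 genes with a difference of 0.19, and Mavs the farthest, in place 4593. With 6 libraries in 2 groups, nearness mostly reflects a similar difference between the groups.

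Companion genes of the same pathways were taken from 8 lists of 135 different genes, of which 113 were tested. By limma, Irf7 alone was called higher and no gene lower. The call is 0.885% of the list, near the 0.821% of all tested genes, of which 0.194% were called lower. At the unadjusted threshold of 0.05, 17 (15%) were higher and 7 (6.19%) lower, where all tested genes had 13.6% and 5.86%. The unadjusted counts of the single lists below stand beside these same shares. Their median log2 fold change was 0.05, with 77 of 113 positive, beside 0.27 for the sensor genes and 0.06 for all tested genes. Leaving out in9 replicate 1 gave 13 companion genes (11.5%) called higher and 4 (3.54%) lower, beside 7.25% and 3.8% of all genes then tested, whereas leaving out any of the other 5 libraries gave none, Irf7 included. Without in9 replicate 1, the genes called higher were 2 regulators of RIG-I-like receptors, 3 downstream of MAVS and 1 partner of ZBP1. The list of cytosolic DNA sensing then had 1 called higher and 1 lower, and the endosomal branch 0. The 2 remaining lists are given below.

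Downstream of MAVS, 1 of 21 tested kinases, adaptors and transcription factors was called. Irf7 encodes the transcription factor that amplifies interferon production and is itself an interferon-induced gene. It was at 99.00, 94.20 and 110.47 TPM in LV2 and at 156.45, 160.05 and 149.30 TPM in in9, without overlap. Its mean rose from 101 ± 8.36 to 155 ± 5.47 TPM (SD, n = 3), a log2 difference of 0.61 ± 0.07 (SE, adjusted p = 0.0254 in limma), and in9 replicate 1 was as high as the others. Outside the naming rule, and named for their roles after values were seen, the kinase gene Tbk1 had a log2 difference of 0.28 (adjusted p = 0.148) and its target Irf3 of -0.02 (adjusted p = 0.938). No gene was called among 20 tested regulators of the RIG-I-like receptors, and the unadjusted threshold of 0.05 was passed by 2 higher genes and no lower one. The smallest p-values were those of the ubiquitin-binding adaptor gene Tax1bp1 (log2 difference 0.26, adjusted p = 0.121) and the MDA5 ligase gene Trim65 (0.24, adjusted p = 0.229), both from limma.

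No partner of ZBP1 in cell death was called in limma. Of 14 listed genes 10 were tested, the unadjusted threshold of 0.05 was passed by 1 higher gene and no lower one, and the median was 0.04. Ripk3, the kinase that ZBP1 engages to start necroptosis, was listed at 0 in all 6 libraries. Mlkl, the pore-forming executor of necroptosis, was abundant, with LV2 libraries at 102.27 to 107.64 TPM, in9 libraries at 103.29 to 107.99 TPM and a 95% interval of the log2 difference of -0.09 to 0.12. Ripk1 ranged over 17.76 to 21.82 TPM in LV2 against 20.11 to 21.29 TPM for in9, and Casp8 over 53.49 to 57.29 against 55.33 to 58.51 TPM. Ripk3, Mlkl, Ripk1 and Casp8 were named for their roles after their values were seen. By the naming rule, the caspase gene Casp6 had a log2 difference of 0.11 (adjusted p = 0.334 in limma).

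The list of the other eIF2alpha kinases, partners of PKR and the factors that act after eIF2alpha gave no call in limma. Of 17 tested, unadjusted p-values under 0.05 were found for 2 higher and 5 lower genes, and the median was 0.00. Of all tested genes, 13.6% were higher and 5.86% lower at that threshold. Prkra encodes PACT, a protein activator of PKR, and had a log2 difference of 0.41 (9.97 to 10.37 TPM in LV2, 12.30 to 15.38 TPM in in9, adjusted p = 0.0972). Ppp1r15a encodes GADD34, the phosphatase subunit that reverses the action of PKR, and had a log2 difference of -0.28 (adjusted p = 0.103). Without in9 replicate 1, 1 gene of this list was called higher and 3 lower, where 7.25% and 3.8% of all genes then tested were.

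Of 21 tested genes for RNA editing, double-stranded RNA binding and RNA unwinding, no call was made by limma. Unadjusted p-values under 0.05 were found for 4 with a higher and 1 with a lower level. Ddx60, an interferon-induced helicase gene linked to RIG-I, had the smallest p of that list. It was at 5.98, 4.71 and 5.63 TPM in LV2 and at 8.07, 11.01 and 10.26 TPM in in9, a log2 difference of 0.74 ± 0.14 (SE, adjusted p = 0.068). The cytidine deaminase gene Apobec3 had one of 0.26 (adjusted p = 0.121). Without in9 replicate 1, 5 genes of this list were called higher, where 7.25% of all genes then tested were.

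In the list of cytosolic DNA sensing, 0 of 17 tested genes passed the threshold of limma, and unadjusted p-values under 0.05 belonged to 3 higher genes and 1 lower gene. Rnaseh2b, for a subunit of the nuclease that removes RNA from DNA hybrids, had LV2 values of 14.87 to 16.65 TPM against 11.50 to 12.51 TPM for in9 (log2 difference -0.36, adjusted p = 0.0803 in limma). Samhd1, a nucleotide hydrolase gene, had a log2 difference of 0.30 (adjusted p = 0.114). The DNA sensor gene Cgas and its adaptor Sting1, named for their roles after values were seen, were at 11.43 to 12.76 and 39.23 to 44.25 TPM in LV2 and at 11.24 to 12.09 and 38.47 to 43.00 TPM in in9. The 95% intervals of their log2 differences were -0.22 to 0.14 and -0.19 to 0.14. The RNA and DNA branches were not tested against each other.

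In the endosomal branch beside Tlr3, 9 of 13 listed genes were tested and none was called in limma, with 1 higher at an unadjusted p under 0.05. Irak2, a signalling kinase gene, had a log2 difference of 0.53 (adjusted p = 0.196) with overlapping groups, and the co-receptor gene Cd14 of -0.20 (adjusted p = 0.296). Tlr8, a receptor for single-stranded RNA, and Unc93b1, which carries these receptors to the endosome, were listed at 0 in all libraries and are named after their values were seen. Of 12 interferon ligand genes none reached a TPM of 1 in any library, the highest value being 0.34, for Ifnb1 in LV2 replicate 1, and 8 were listed at 0 in all libraries.

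**Figure D4:**
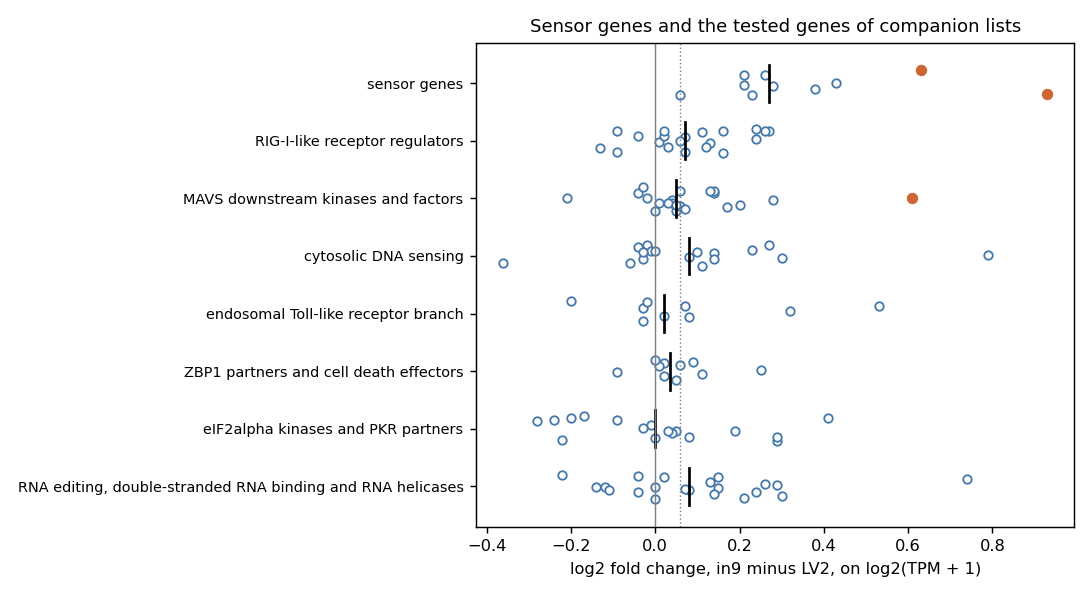
Log2 fold change, in9 minus LV2 on log2(TPM + 1), of the 10 sensor genes (top row) and of the tested genes of 7 companion lists (1 point per gene; filled orange where called in limma; black bar at the median of the row; dotted line at 0.06, the median of all tested genes). The sensor genes have a median of 0.27, the lists between 0.00 and 0.08, and Irf7 at 0.61 is the 1 companion gene called.

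The cell identity was checked with marker genes. Of 8 epithelial markers 7 were at 1 TPM or more in every library, summing to 2346.1 to 2399.79 TPM for LV2 and 2245.5 to 2301.33 TPM for in9, and Krt5 was near 0. Of 12 leukocyte markers 11 were under 1 TPM in all libraries, the pan-leukocyte gene Ptprc was at 0.12 TPM or less, and Adgre1 and Nkg7 were listed at 0. The leukocyte sum was 7.95 to 10.04 TPM for LV2 and 13.42 to 28.87 TPM for in9, of which S100a8 made up 7.50 to 9.38 and 12.59 to 28.15 TPM. The part of these markers in the differences above was not tested. Fibroblast markers summed to 5.19 to 7.39 TPM for LV2 and 8.60 to 9.08 TPM for in9, nearly all Pdgfra, with Lum listed at 0, and endothelial markers to 1.72 to 1.95 and 1.97 to 2.17 TPM.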

How the data were processed

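Messenger RNA libraries of 4T1 cells (3 LV2, 3 in9) were analysed from 1 table of TPM values deposited by the authors, with 2 decimals and a mean column per group that equalled the library means within 3.33e-05. The build named is mm10, per the submitters' processing notes. Aligner, quantifier, annotation and strand setting were not given in the sources used here. TPM keep no depth, so counting error is unknown and a count model does not apply.

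The 13406 genes whose TPM averaged 1 or more in the 6 libraries entered a two-sided test in limma 3.58.1 (R version 4.3.3) on log2(TPM + 1), using an intensity trend and no replicate block, Benjamini-Hochberg adjustment over these genes and a call at an adjusted p under 0.05. Fold changes on this scale understate those of low genes. Promoter and microRNA sequences were those of RefSeq (GRCm38.p6), and 3' UTRs and positions those of GENCODE M21. Summaries used numpy 2.4.6 and pandas 2.3.3 under python 3.11.15.

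The members, lists and alternatives were chosen with earlier results of these data known. Named companions were those called in a list, otherwise the 2 with the smallest p (1 result is not reported here), and for Zbp1 the 5 genes of nearest profile, leaving out clone and predicted names. Of 2 rows named Ddit3 the higher was used. Alternatives were a pseudocount of 0.1, no filter, a stricter filter at a mean of 5, an unweighted trimmed-mean scaling of TPM (cutting 30% of log ratios and 5% of mean levels at either end), quantile normalization, no trend, a replicate block, and leaving out each library.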

Additional observations from a re-analysis of the deposited data

How the results depend on the processing

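The fold changes of 9 genes kept their sign under every alternative run, and Mavs turned to -0.01 after trimmed-mean scaling and to -0.01 after quantile normalization. Calls depended more on the processing. Of all tested genes 110 were called higher and 26 lower, against 24 and 6 with no filter, 27 and 4 with no intensity trend, and 45 lower at a minimum mean TPM of 5. The sensor genes called higher numbered 2, against 1 with no filter and 1 with no intensity trend, the loss being Zbp1 at an unchanged fold change of 0.93, and the companion gene called was lost under both (0 called). Same-numbered libraries did not deviate together (correlations of -0.1, 0.02 and -0.05). Variation within the groups could hide a shared batch, so this check does not settle whether the numbers pair the samples. With a replicate block 1 gene was called higher and 1 lower, and 0 sensor and 0 companion genes, with Zbp1 at 0.93 (adjusted p = 0.195) and Mov10 at 0.63 (adjusted p = 0.194). That fit has fewer residual degrees of freedom.

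Leaving out 1 library gave 6 to 971 genes higher and 1 to 509 lower, 0 to 7 sensor genes higher, 0 to 13 companion genes higher and 0 to 4 lower, the top of each range without in9 replicate 1. The fold changes then ranged from 0.81 to 1.01 for Zbp1, 0.61 to 0.66 for Mov10, 0.35 to 0.41 for Tlr3, 0.17 to 0.24 for Ddx58, 0.18 to 0.44 for Eif2ak2, 0.13 to 0.32 for Adar and 0.19 to 0.30 for Trim25. The number of libraries limits the precision, and the depth is unknown.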
